A study of Mus musculus with 8 samples.

Results

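Genes of 36 histone lysine methyltransferases and related SET domain proteins were followed in mouse hearts after a single dose of the cardiac glycoside digoxin, and 33 of the 36 were measured, out of 22180 genes in all. The family was chosen by function, from a list of gene names. It was put forward because Setdb2 had been among the largest rises in an earlier look at these arrays, so the digoxin and vehicle values below are a description and not an independent test. Each of the 33 genes was read by 1 probe set of an Affymetrix Mouse Gene 2.0 ST array. Suv39h1, Suv39h2 and Ash1l were not analysed here.

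The hearts came from male wild-type mice of the strain labelled C57BL6JRj, aged 8 to 10 weeks, kept on 12 h of light and 12 h of dark. One group of 5 received digoxin at 1 mg/kg into the peritoneum at ZT5, where ZT0 is lights-on. The other group, of 3, received the solvent, a mixture of ethanol, propylene glycol, citric acid and sodium phosphate. Hearts of both groups were taken at ZT9. By the series design the vehicle group had 4 samples, of which 1 is not analysed here. The labels do not state that each array is a separate animal, so errors and p-values describe the spread between these samples.

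Histone lysine methyltransferases place methyl groups on lysines of the histone tails, using S-adenosylmethionine as the donor, and nearly all of them do so through a SET domain. Methylation of H3K4 marks active promoters and enhancers, that of H3K36 marks transcribed gene bodies, and that of H3K9, H3K27 and H4K20 is linked to silent chromatin. DOT1L, which methylates H3K79, is the family's enzyme without a SET domain. In heart the best known member is SMYD1, a muscle-restricted protein needed for myofibril assembly. SETDB2 is a relative of the H3K9 enzyme SETDB1, and in mouse liver it has been reported as a gene induced by glucocorticoids.

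Values are log2 expression after Robust Multi-array Average, centred by the authors for each probe set, so they show differences between arrays and no absolute level. For that reason the heart label could not be set against the levels of cardiac genes, and no gene's level is set against another's. Of 22180 genes tested with limma, 1.36% passed an adjusted p of 0.05, with 0.947% higher and 0.415% lower in digoxin hearts. Of the 33 methyltransferase genes 1 passed, Setdb2, which was higher, and none was lower. Because the family was put forward from this contrast, nothing is read from that count. The groups did not overlap in 3 of the 33 genes (9.09%), against 8.16% of all genes. The median log2 change was 0.022 over the 33 genes and -0.011 over all genes.

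2 arrays stood apart from the rest. Vehicle replicate 3 had an interquartile range of 0.216 over all probe sets, against 0.0792 to 0.115 on the other arrays, and it held the lowest of the 8 values in 18 of the 33 genes (54.5%), against 25.6% of all genes. Digoxin replicate 4 had high values of T cell and proliferation genes. The mean of 9 measured T, B and NK cell markers was 1.12 there, and -0.062 to 0.048 on the other 7 arrays. Of these markers 6 were highest on that array. The high mean came from Cd3g (3.16), Cd3e (2.85), Cd8a (2.14) and Ptprc (1.63), while the B and NK cell markers lay between -0.076 and 0.11 there. The mean of 7 proliferating cell markers was 0.64 there and lay between -0.091 and 0.015 elsewhere. Adipocyte markers, 5 of 6 highest on that array, averaged 0.41 there and -0.13 to 0.12 elsewhere. The 6 mesothelial and Schwann cell markers, 2 of them highest there, averaged 0.34 there and -0.087 to 0.17 elsewhere. The mesothelial genes Upk3b (0.86), Msln (0.57) and Lrrn4 (0.46) were high there, Lrrn4 also on vehicle replicate 1 (0.50). Wt1 (0.059) and the Schwann cell genes Sox10 (0.015) and S100b (0.057) were near 0 there. Atrial markers averaged -0.38 to 1.59 on the digoxin arrays and 0.24 to 2.09 on the vehicle arrays. In whole-heart RNA, fewer cells of a type and less RNA per cell cannot be told apart.

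**Figure D1:**
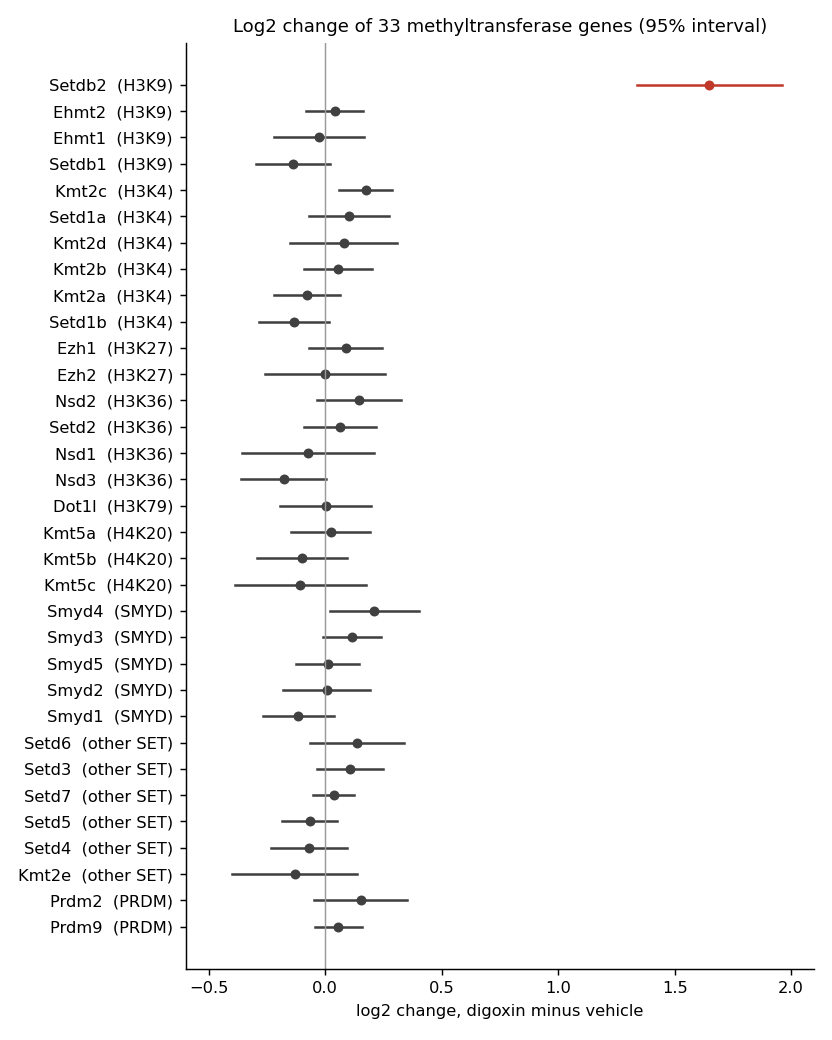
Log2 change (digoxin minus vehicle, x axis) of each of 33 methyltransferase genes, ordered by the residue they act on or by subfamily (y axis). Points are the change over 5 digoxin and 3 vehicle arrays and lines are 95% intervals from limma. Setdb2, in red, lies at 1.65, and the other 32 genes lie between -0.18 and 0.21.

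Setdb2 stood alone in the family by size. Its centred log2 values in digoxin hearts were 1.36, 1.16, 1.53, 1.48 and 1.62 in replicates 1 to 5. In vehicle hearts they were -0.033, -0.076 and -0.54. Every digoxin array lay far above every vehicle array, and vehicle replicate 3 was the lowest. The means were 1.43 ± 0.18 (SD, n = 5) and -0.22 ± 0.28 (SD, n = 3), a log2 change of 1.65 (SE 0.14, 95% interval 1.34 to 1.96) or 3.13 times the vehicle level. By size it was number 6 among the rises of all genes. Without vehicle replicate 3 the change was 1.49, without digoxin replicate 4 it was 1.64, and without both it was 1.47, and Setdb2 passed the threshold in each of these fits.

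The promoter of Setdb2 is shown because its start region is shared with a neighbour that was also measured. Both sequences are the 250 bases before the start in RefSeq for GRCm38.p6, minus strand, written 5′ to 3′ along the gene. Capitals mark CCAAT boxes (CCAAT or its reverse complement).
Setdb2, chr14:59440881-59441130: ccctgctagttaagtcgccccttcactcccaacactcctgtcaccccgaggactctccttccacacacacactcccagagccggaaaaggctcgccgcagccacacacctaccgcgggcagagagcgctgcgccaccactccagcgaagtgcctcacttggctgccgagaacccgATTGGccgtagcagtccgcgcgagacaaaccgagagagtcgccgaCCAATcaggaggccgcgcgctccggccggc
Setdb1, chr3:95357203-95357452: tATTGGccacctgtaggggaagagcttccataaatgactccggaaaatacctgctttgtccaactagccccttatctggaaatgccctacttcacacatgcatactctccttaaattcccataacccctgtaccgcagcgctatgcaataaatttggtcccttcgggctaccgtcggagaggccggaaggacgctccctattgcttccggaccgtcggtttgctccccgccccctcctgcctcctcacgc

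Promoter windows of 300 bases (250 before to 50 after the start) were found for 27 of the 36 genes, 25 of them measured. Setdb2 had 2 CCAAT boxes, starting 75 and 30 bases before the start, in opposite orientations. A CCAAT box, searched on both strands, was in windows of 12 of the 27 genes, in 44.1% of the family's 34 windows and in 37.4% of 32851 windows of all genes. The Setdb2 window held no glucocorticoid receptor half-site (AGAACA on either strand), which 8.82% of the family's windows and 19% of all windows hold. These letters were in windows of Ezh2, Kmt5c and Prdm9. It also held no E-box (CACGTG), against 7.15% of all windows, no GC box (GGGCGG), against 70.6% of the family's and 35.7% of all windows, and no TATA box (TATAAA), against 13.6%. The Smyd1 window was the single one of the family with TATAAA, and it had 3 CpG dinucleotides, against 29 in the Setdb2 window and a family median of 29. A match here describes letters and not a bound site, and a missing match says nothing of sites elsewhere.

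Cab39l, which encodes a scaffold protein of the LKB1 kinase complex, starts on the opposite strand beside Setdb2, and its promoter window shares 182 bases with that of Setdb2. Cab39l values were 0.11, 0.12, 0.11, 0.096 and 0.091 in digoxin hearts and 0.14, -0.012 and -0.28 in vehicle hearts. All 5 digoxin values lay below the highest vehicle value. The log2 change of Cab39l was 0.16 (95% interval -0.029 to 0.34), and 0.042 without vehicle replicate 3.

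On the other side of Setdb2 lie the PHD finger genes Phf11c, Phf11d, Phf11b and Phf11a. Phf11c stood at -0.033, 0.050, 0.076, 0.47 and 0.21 in digoxin hearts and at 0.050, 0 and -0.22 in vehicle hearts, with a change of 0.21 (95% interval -0.050 to 0.48). Its highest value was on digoxin replicate 4. The RefSeq gene Gm45935 spans Phf11c and Setdb2 and has the same promoter window as Setdb2. Phf11d stood at -0.22, Phf11b at -0.16 and Phf11a at -0.096, and none of these genes passed the test. With vehicle replicate 3 left out, Phf11c stood at 0.13, Phf11b at -0.30 and Phf11a at 0.10.

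**Figure D2:**
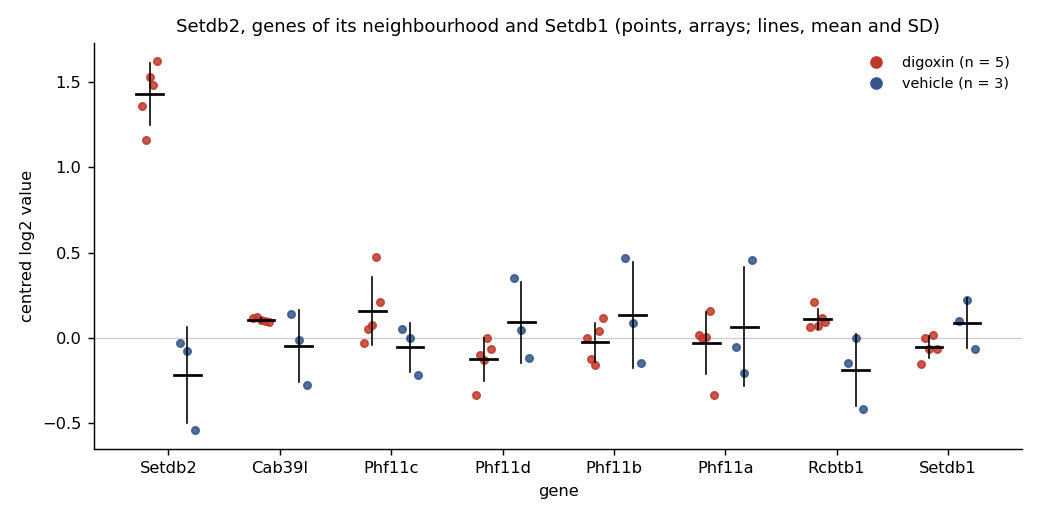
Centred log2 value (y axis) on each array for Setdb2, genes of its chromosomal neighbourhood and its relative Setdb1 (x axis). Points are arrays (red, 5 digoxin; blue, 3 vehicle) and black lines are the mean and SD. The digoxin arrays of Setdb2 lie between 1.16 and 1.62, above all vehicle arrays, while the groups overlap in Cab39l, the Phf11 genes and Setdb1. Rcbtb1, a gene of the same region by the list used, is also shown and did not pass the test.

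The other H3K9 enzymes had changes far smaller than that of Setdb2. Setdb1, the H3K9 enzyme recruited by KRAB zinc finger proteins through TRIM28, stood at -0.15, 0, -0.067, 0.014 and -0.065 in digoxin hearts and at 0.097, 0.22 and -0.066 in vehicle hearts. Its groups overlapped through vehicle replicate 3, and the log2 change was -0.14 (95% interval -0.30 to 0.018), or -0.21 without that array. Set against Setdb1 on the same array, Setdb2 differed by 1.16 to 1.69 on the digoxin arrays and by -0.48 to -0.13 on the vehicle arrays. These differences are of centred values, so they do not show which gene is more abundant. Of the 2 genes only Setdb2 passed the test.

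Ehmt1 and Ehmt2 encode GLP and G9a, which pair to place mono- and dimethyl marks on H3K9. Ehmt1 values were -0.083, 0, 0.12, 0.013 and -0.0050 in digoxin hearts and 0.060, 0.22 and -0.17 in vehicle hearts. Ehmt2 values were 0, -0.046, 0.028, 0.10 and 0.029 against 0.039, 0.029 and -0.12. Both sets of arrays overlapped, and the changes were -0.027 (95% interval -0.22 to 0.16) for Ehmt1 and 0.040 (95% interval -0.081 to 0.16) for Ehmt2. Leaving out vehicle replicate 3, they were -0.13 and -0.012.

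Among the 6 H3K4 enzymes of the SET1 and MLL type none passed, and the median change was 0.066, or -0.041 without vehicle replicate 3. Kmt2c encodes MLL3, which with MLL4 places H3K4 monomethylation at enhancers. It stood at 0.061, 0.067, 0.031, 0.078 and 0.053 in digoxin hearts and at -0.0096, -0.12 and -0.21 in vehicle hearts. The digoxin arrays were tightly grouped and lay above all vehicle arrays. The change was small, at 0.17 (SE 0.050, 95% interval 0.059 to 0.29), and 0.12 without vehicle replicate 3.

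Setd1b, which encodes a catalytic subunit of a SET1 complex, lay the other way. Its values were -0.28, -0.0025, -0.019, -0.054 and -0.11 in digoxin hearts and 0.086, 0 and 0.037 in vehicle hearts. The groups did not overlap, but only 0.0025 lay between the highest digoxin and the lowest vehicle value, and the change was -0.13 (95% interval -0.28 to 0.018). Its paralogue Setd1a stood at 0.10, Kmt2d (MLL4) at 0.079, Kmt2b at 0.054 and Kmt2a (MLL1) at -0.079. In these 4 genes the groups overlapped. Once vehicle replicate 3 was left out, Setd1a stood at 0.018, Kmt2d at -0.061 and Kmt2b at -0.020.

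Ezh1 and Ezh2 encode the alternative catalytic subunits of Polycomb repressive complex 2, which methylates H3K27, EZH2 being the form of dividing cells. Ezh1 stood at -0.061, 0, 0.063, 0.15 and 0.13 in digoxin hearts and at 0.067, 0 and -0.16 in vehicle hearts, a change of 0.087 (95% interval -0.069 to 0.24), or 0.021 without vehicle replicate 3. Ezh2 stood at 0, -0.078, -0.029, 0.42 and -0.095 in digoxin hearts and at 0.092, 0.088 and -0.052 in vehicle hearts. Digoxin replicate 4 was far above the other 7 arrays. With it the change of Ezh2 was 0.00012 (95% interval -0.26 to 0.26), without it -0.093, and without it and vehicle replicate 3 it was -0.14.

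The proliferating cell markers were highest on the same array. All 7 measured ones had their highest value of the 8 arrays on digoxin replicate 4, and Mki67, a marker of cycling cells, stood at 1.38 there and between -0.44 and 0.035 elsewhere. Cd3e and Cd8a, both T cell genes, stood at 2.85 and 2.14 there. Of the 33 methyltransferase genes, 10 had their highest value on that array, namely Ezh2, Ezh1, Nsd2, Kmt5c, Kmt2b, Kmt2c, Ehmt2, Smyd3, Smyd5 and Setd3. The lead was slight in some: Kmt2c stood at 0.078 there and at 0.067 on digoxin replicate 2, and Kmt2b at 0.12 there and on digoxin replicate 5. The share of all genes highest on that array was not counted, so nothing is read from the 10. The part of these cells in these values was not tested. Setdb2 was not highest there, since digoxin replicates 3 and 5 were higher.

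**Figure D3:**
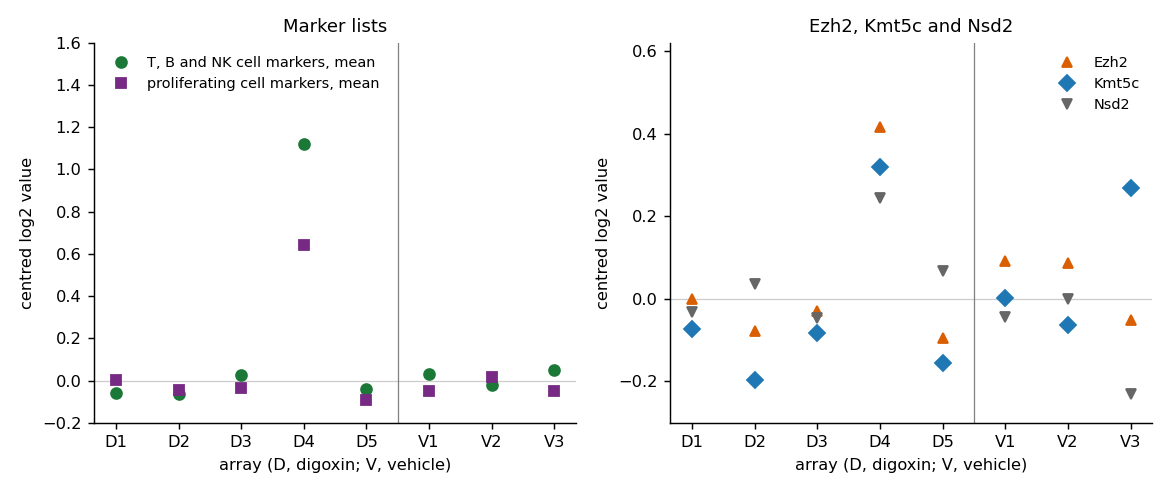
Left, mean centred log2 value (y axis) of 9 T, B and NK cell markers and 7 proliferating cell markers on each array (x axis). Right, centred log2 values of Ezh2, Kmt5c and Nsd2 on the same arrays. Digoxin replicate 4 (D4) is the highest array for both marker means (1.12 and 0.64) and for all 3 genes (0.42, 0.32 and 0.24).

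The H3K36 enzymes had changes of both signs. Nsd3 stood at -0.12, -0.054, 0, 0.14 and -0.14 in digoxin hearts and at 0.25, 0.19 and -0.0046 in vehicle hearts. The groups overlapped through vehicle replicate 3, and digoxin replicate 4 was the highest digoxin array. The change was -0.18 (95% interval -0.36 to 0.0022) with all arrays and did not pass. Without both of those arrays it was -0.30 and passed.

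Nsd2, linked to dimethylation of H3K36, stood at -0.031, 0.036, -0.046, 0.24 and 0.067 in digoxin hearts and at -0.044, 0 and -0.23 in vehicle hearts. Digoxin replicate 4 was the highest array and vehicle replicate 3 the lowest. The change was 0.15 (95% interval -0.035 to 0.33), and 0.028 without both. Nsd1 stood at -0.076 and Setd2, the enzyme of H3K36 trimethylation in gene bodies, at 0.063, and in both the groups overlapped. Nsd1 was the more variable in vehicle hearts, from -0.34 on replicate 3 to 0.28 on replicate 1. With vehicle replicate 3 left out, the change of Nsd1 was -0.26 and that of Setd2 -0.030, and neither passed.

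Dot1l stood at 0, 0.0032, 0.11, -0.14 and 0.18 in digoxin hearts and at 0.19, -0.0086 and -0.092 in vehicle hearts, with no order between the groups. Its change was 0.0017 (95% interval -0.19 to 0.20). The H4K20 enzymes were the monomethylase gene Kmt5a at 0.022 and the genes Kmt5b and Kmt5c, whose products add the further methyl groups, at -0.10 and -0.11. Kmt5c ranged from -0.20 to 0.32 in digoxin hearts, with the highest value on replicate 4, and from -0.064 to 0.27 in vehicle hearts. The Kmt5c change was -0.20 when digoxin replicate 4 was left out. With vehicle replicate 3 left out, Kmt5c stood at -0.0074 and Kmt5b at -0.21.

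**Figure D4:**
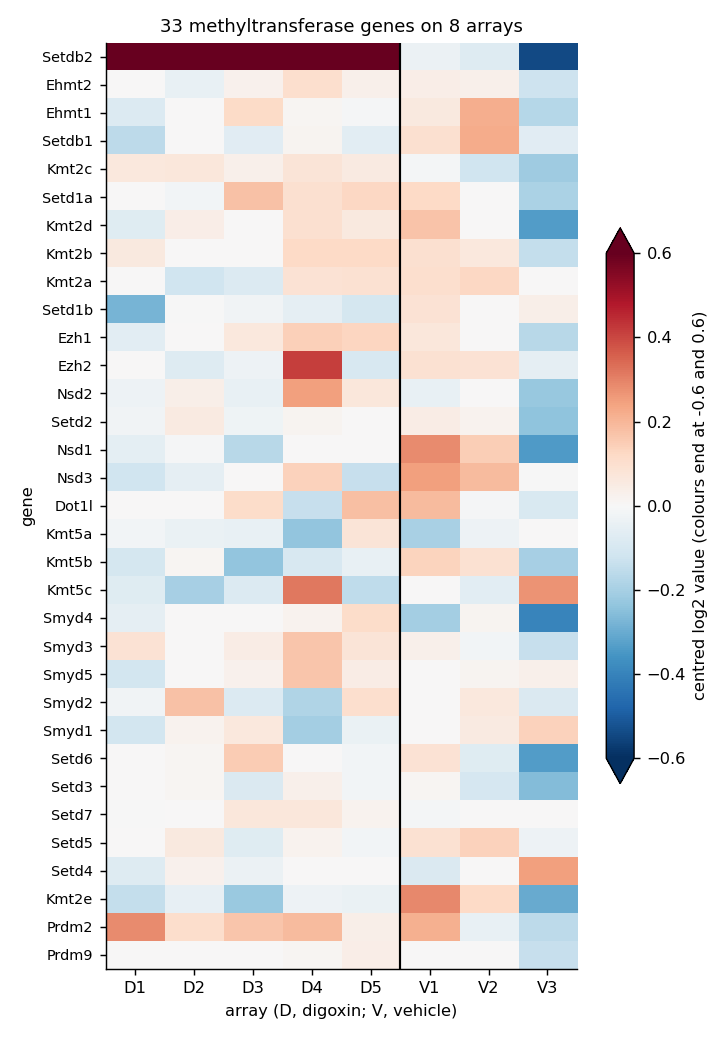
Centred log2 values of 33 methyltransferase genes (rows, ordered by class) on 5 digoxin and 3 vehicle arrays (columns), as colour. The Setdb2 row is red on all 5 digoxin arrays, beyond the end of the colour scale, and the column of vehicle replicate 3 (V3) holds the lowest value in 18 of the 33 rows.

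The 5 SMYD genes encode SET domain proteins with a MYND zinc finger, several of which methylate proteins other than histones. Smyd1 stood at -0.11, 0.023, 0.065, -0.20 and -0.038 in digoxin hearts and at 0, 0.052 and 0.14 in vehicle hearts. The groups overlapped, and the change of this muscle gene was -0.12 (95% interval -0.27 to 0.037), or -0.041 without both arrays that stand apart. Smyd4 had the largest change of the family after Setdb2. It stood at -0.054, 0, 0, 0.019 and 0.11 in digoxin hearts and at -0.20, 0.014 and -0.39 in vehicle hearts.

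The Smyd4 change was 0.21 (95% interval 0.018 to 0.40), and it was 0.11 without vehicle replicate 3, where Smyd4 was lowest. Its groups overlapped through vehicle replicate 2. Smyd3 stood at 0.12, or 0.068 without that array, Smyd5 at 0.0096 and Smyd2 at 0.0065.

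Among the remaining SET domain genes, Setd3 encodes an enzyme now known to methylate a histidine of actin. It stood at 0, 0.012, -0.085, 0.028 and -0.017 in digoxin hearts and at 0.010, -0.10 and -0.26 in vehicle hearts, a change of 0.11 (95% interval -0.036 to 0.25), or 0.034 without vehicle replicate 3. Setd6 stood at 0.14, Setd7, an H3K4 monomethylase gene, at 0.035, Setd5 at -0.067, Setd4 at -0.069 and Kmt2e at -0.13. When vehicle replicate 3 was left out, Setd6 stood at 0.023, Setd5 at -0.12 and Setd4 at 0.027. Kmt2e ranged from -0.22 to -0.031 in digoxin hearts and from -0.30 to 0.29 in vehicle hearts. Without vehicle replicate 3 its change was -0.30, the largest of the other 32 genes in that fit, and it did not pass.

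Prdm2 and Prdm9 carry a PR domain, a relative of the SET domain, PRDM9 being the enzyme that places meiotic recombination sites. Prdm2 stood at 0.28, 0.10, 0.17, 0.19 and 0.035 in digoxin hearts and at 0.21, -0.047 and -0.16 in vehicle hearts, which overlapped. Its change was 0.15 (95% interval -0.047 to 0.35), 0.072 without vehicle replicate 3 and 0.26 without vehicle replicate 1. Prdm9 stood at 0.057, with a single array, vehicle replicate 3, more than 0.1 from 0, and at 0.010 without it.

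Over the 32 genes other than Setdb2, 20 had a higher mean in digoxin hearts and 12 a lower one. Without vehicle replicate 3 those numbers were 14 and 18, and the 8 genes whose sign turned were Ehmt2, Kmt2b, Kmt2d, Setd2, Setd4, Ezh2, Dot1l and Smyd2. The 95% intervals of all 32 lay between -0.40 and 0.40, so the largest change that any of these intervals holds is 1.32 times, in either direction. With all arrays, the Setdb2 change was 7.84 times the largest of the other 32 on the log2 scale. That ratio depends on vehicle replicate 3: without it, Setdb2 stood at 1.49 and Kmt2e, the largest of the others, at -0.30. In the fit with all arrays, Smyd4 and Kmt2c were the 2 genes whose interval left out 0. Neither passed after adjustment over all genes.

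The partners of these enzymes were counted in the same fit. None of 11 genes of Polycomb repressive complex 2 and its cofactors passed (median change 0.022), with Suz12 at 0.25, Epop at -0.18 and Aebp2 at 0.12. Suz12 was lowest on vehicle replicate 3, and stood at 0.074 without it, where Aebp2 stood at 0.0019, Epop at -0.055 and the median at -0.051. None of 15 partners of the SET1 and MLL complexes passed (median 0.053). Wdr82, a SET1 complex subunit, came nearest at -0.25 (adjusted p = 0.0692 in limma), its 5 digoxin arrays lying below its 3 vehicle arrays, and Paxip1 stood at 0.22 and Wdr5 at 0.16. The median of this list without vehicle replicate 3 was -0.047, and Paxip1 stood at 0.14.

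None of 17 partners and readers of H3K9 methylation passed (median -0.013), with the methyl-CpG binding gene Mbd1 at 0.33, the SETDB1 partner Atf7ip at -0.21 and the DNA methyltransferase gene Dnmt3a at -0.14, or -0.053 without vehicle replicate 3. Of 10 genes linked to DOT1L and H3K36, Aff1 rose and the others did not pass (median 0.0052, or -0.052 without vehicle replicate 3). Aff1 encodes a scaffold of the super elongation complex. It stood at 0.41, 0.49, 0.59, 0.74 and 0.57 in digoxin hearts and at 0.022, 0.15 and -0.14 in vehicle hearts, with no overlap. The change was 0.55 (SE 0.086, adjusted p = 0.0198 in limma). Aff1 did not pass when digoxin replicate 3, digoxin replicate 5 or vehicle replicate 1 was removed, with limma adjusted p values of 0.0634, 0.0635 and 0.0581. Its change in those fits was as large, at 0.54, 0.55 and 0.55. In this list Supt6 stood at 0.17, Aff4 at 0.16, or 0.10 without vehicle replicate 3, and Mllt1 at -0.097.

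The erasers of these marks did not pass either. None of 23 histone lysine demethylase genes did (median 0.052), with the H3K9 demethylase genes Kdm3a at 0.26 and Kdm3b at 0.20 and the H3K36 demethylase gene Kdm2a at -0.12. Vehicle replicate 3 held the lowest value in 15 of these 23 genes. Without that array the median was 0.025, and without it and digoxin replicate 4 it was -0.0016. None of 19 further PR and SET domain genes or lysine methyltransferase genes passed (median 0.00045, or -0.0091 without vehicle replicate 3), with Prdm15 at -0.18, Mecom at -0.13 and Prdm4 at 0.13. Prdm1, which encodes the repressor Blimp-1, stood at -0.20 and passed without vehicle replicate 3, at -0.38.

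None of 10 partners and muscle targets linked to Smyd1 passed (median -0.0067, or 0.0075 without vehicle replicate 3). Ppargc1a, the gene of the mitochondrial coactivator PGC-1 alpha, stood at 0.36, Opa1 at 0.17 and Myom1 at 0.14. Ppargc1a passed when vehicle replicate 1 was removed, and Opa1 stood at 0.11 without vehicle replicate 3. Of 14 genes listed as linked to SETDB2 or lying near it, Lpin1 rose and the others did not pass (median 0.053, or -0.0016 without vehicle replicate 3). Lpin1 encodes a phosphatidate phosphatase of lipid synthesis. It stood at 0.12, 0.24, 0.29, 0.18 and 0.35 in digoxin hearts and at -0.25, -0.25 and -0.11 in vehicle hearts, with no overlap.

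The Lpin1 change was 0.44 (SE 0.063, adjusted p = 0.0128 in limma), and it did not pass when vehicle replicate 1 or vehicle replicate 2 was removed, with limma adjusted p values of 0.0524 and 0.0617 and changes of 0.42 and 0.41. Insig2, a regulator of sterol synthesis and a reported SETDB2 target in liver, stood at 0.071 (95% interval -0.22 to 0.36), or -0.10 without vehicle replicate 3. The chemokine gene Cxcl1 stood at -0.22 and Rcbtb1, a gene of the same region by the list used, at 0.30, or 0.18 without vehicle replicate 3, and neither passed. The values of Setdb2 and these genes come from the same arrays, and no link between them was tested.

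Genes that respond to glucocorticoids were counted beside Setdb2, in a list already known from these data to be high. Of 13 listed, 8 rose, namely Fkbp5 (2.17), Ddit4 (1.98), Zbtb16 (1.11), Errfi1 (1.04), Klf15 (1.01), Sgk1 (0.95), Cebpd (0.81) and Klf9 (0.51). None passed as lower, though 2 of the 13 had a lower mean, and the median of the list was 0.81. The share of all genes that rose was 0.947%, but the list was known to be high, so nothing is read from the count. No link between Setdb2 and these genes was tested. Nr3c1, the gene of the glucocorticoid receptor, stood at -0.28, -0.057, -0.22, -0.22 and -0.33 in digoxin hearts and at 0.059, 0.074 and 0.0038 in vehicle hearts, a change of -0.27 that did not pass (adjusted p = 0.10 in limma). All 5 digoxin arrays lay below the 3 vehicle arrays.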

How the data were processed

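Heart RNA was measured on 5 digoxin and 3 vehicle arrays. The authors normalised the arrays with Robust Multi-array Average, per the series design text, and deposited log2 values centred for each probe set. The reference of the centre and the authors' tool versions are not stated in what was used here. The submitters' processing notes list limma. The log base is that of the normalization method. Column medians lay between -0.0058 and 0.0087, and no 2 arrays held the same values. Precision is limited by how few arrays there are.

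Of 34351 probe sets, 23521 had 1 gene symbol in the platform annotation, 1814 several and 9016 none. Probe sets with 1 symbol were averaged into 22180 genes and fitted by a linear model with moderated variance (limma 3.58.1, R 4.3.3; two-sided, no covariate, Benjamini-Hochberg over all genes tested, threshold 0.05). Intervals are at 95% with 6 residual and 2.75 prior degrees of freedom. The fit was also run on simulated normal values with the same spread on every array, a setting without the wider spread of vehicle replicate 3. The outcome of that run is not reported here, so nothing is read from it. In the labels all vehicle arrays are numbered ahead of the digoxin arrays, so treatment cannot be told apart from the order of the arrays.

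The members and lists were chosen with earlier results of these data known. The genes with values on every array were those past the test, the 6 next largest changes, those without overlap, and Setdb1, Ehmt1, Ehmt2, Ezh1, Ezh2, Dot1l, Smyd1 and Setd3; in other lists, the genes past the test and up to 3 more of the smallest p. Nr3c1, Prdm1, Insig2, Mki67, Cd3e, Cd8a and the neighbours of Setdb2 were named in addition, after their values were seen. Promoter windows are those of RefSeq for GRCm38.p6, and neighbours are from its gene table. Alternatives covered normalization between arrays, probe sets, the variance model, array weights, centring, thresholds, the replicate number and arrays left out.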

Additional observations from a re-analysis of the deposited data

Results flagged for a closer look

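In the 5 digoxin arrays, 4 of the 33 genes had 1 array whose distance to the next was large against the whole range (Dixon's criterion). For normally distributed values, chance alone gives such an array in about 1 in 20 groups. The share of all genes with such an array is not given here, so nothing is read from the 4. Ezh2 stood at 0.42 on digoxin replicate 4, against -0.095 to 0 on the other digoxin arrays, and Kmt5c at 0.32 on the same array, against -0.20 to -0.074. That array also carried the high T cell and proliferation markers, whose part in these values was not tested. Setd6, a lysine methyltransferase gene, stood at 0.15 on digoxin replicate 3, against -0.017 to 0.011. Prdm9 stood at 0.042 on digoxin replicate 5, against 0 to 0.011. Several of its digoxin values were tied at 0, so the stated rate does not apply to it.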

How the results depend on the processing

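The Setdb2 change lay between 1.47 and 1.74 over all alternatives, and it passed in each of them except the fit with the replicate number as a block. In that replicate block fit Setdb2 stood at 1.57 (adjusted p = 0.132 in limma), 0 members and 0 partner genes passed, and among all genes 11 were higher and 1 was lower. The correlations of same-numbered deviations were -0.197, -0.0177 and 0.0236, too few to decide whether the numbers pair the samples. Digoxin replicates 4 and 5 have no vehicle array of the same number. The count of members higher stayed at 1 in all other fits; 1 member, Nsd3, was lower without digoxin replicate 4 and vehicle replicate 3 together. The family median lay between -0.018 and 0.051. It was negative with array weights (-0.0041), without vehicle replicate 3 (-0.012) and without both arrays that stand apart (-0.018). Partner genes higher numbered 2, between 1 and 2 with 1 array left out, 3 with quantile normalization and 0 at a threshold of 0.01; the 1 gene without vehicle replicate 1 was Ppargc1a. Partner genes lower numbered 0, between 0 and 1 with 1 array left out, 3 with array weights, 2 without both arrays that stand apart and 1 at a threshold of 0.1. No cell type marker passed; the count was between 0 and 4 with 1 array left out, 1 with quantile normalization, 4 with array weights, 8 without both arrays and 2 at a threshold of 0.1. Over all genes, 210 were higher and 92 lower; the numbers were 294 and 320 with array weights, 218 and 282 without both arrays, 95 and 23 at a threshold of 0.01, 327 and 166 at 0.1, and 123 to 185 and 29 to 189 with 1 array left out. The causes of these changes were not tested. Of 480 values of the other members under 15 alternatives, 3 moved by more than the SD between arrays. Centred values give no signal over background, so dim genes could not be left out.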

Other observations

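The supply of the methyl donor was measured with 16 genes of S-adenosylmethionine synthesis, recycling and folate metabolism. None passed (median 0.022), with Ahcyl1 at 0.19, the folate enzyme gene Mthfd2 at 0.19 and the methionine synthase gene Mtr at 0.16. Without vehicle replicate 3 the median was 0.048, and Mtr stood at 0.095. Of 10 protein arginine methyltransferase genes and partners none passed (median 0.056). Prmt9 stood at 0.35, Prmt6 at 0.28 and Prmt3 at 0.14, and Prmt9 passed with quantile normalization. That median was, with vehicle replicate 3 left out, -0.0034, and Prmt3 stood at 0.052. None of 10 genes of histone variants and chaperones passed (median 0.012), with Atrx at 0.20, Chaf1a at -0.082 and Chaf1b at 0.069. Atrx was lowest on vehicle replicate 3, and with that array left out Atrx stood at 0.055, Chaf1b at 0.12 and the median at -0.033.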
